A study of Mus musculus with 6 samples.

Results

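The neural stem cell identity markers examined here were 10 genes by which neural stem and progenitor cells (NSPCs) are recognised: Nes, Vim, Sox2, Sox9, Pax6, Nr2e1, Msi1, Msi2, Fabp7 and Prom1. They were chosen by symbol, and all 10 were among the 17254 genes seen in any library. Of these 10, 9 passed a filter on low values (FPKM, fragments scaled by transcript length and library total, averaging 1 or more over the libraries), as did 11717 genes in all. Prom1 was below the filter.

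The study asked how oxidants and antioxidants act on NSPCs, and profiled mRNA in 6 libraries of mouse NSPC cultures after 48 h. Mock-treated control cells, cells given 5 µM paraquat (PQ, a redox cycler that produces superoxide) and cells given 5 mM N-acetylcysteine (NAC, a thiol antioxidant) each had 2 libraries. According to the methods, all cells came from a neonatal, immortalized Ink/Arf-/- culture in N2 medium with 20 ng/mL of EGF and bFGF. From lineage marker mRNA, the paper describes this culture as mixed. Oligodendroglial and neuronal precursors stand in it beside neural stem cells, some active and some relatively quiescent. Genotype (spelled Ink/Ark knockout) and strain (C57BL/6) are in the labels of control library 1 and PQ library 1 only, as is the PQ dose, and the NAC dose is taken from the paper.

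The labels of control library 1 and PQ library 1 name standard Illumina protocols, and those of the other 4 libraries, NAC included, name the BGISEQ-500 platform. Expected counts, estimates that share ambiguous reads between genes, summed to 9849392 and 10040827 in control, 10388731 and 9680436 in PQ, and 10698241 and 9907726 in NAC libraries. Across the 11717 genes, which are not independent replicates, Pearson's r of log2 CPM (counts scaled to a common library total) was between 0.989 and 0.992 within groups and between 0.966 and 0.980 between groups. The libraries thus grouped by treatment and not by labelled platform. The labels do not say whether the 2 libraries of a group came from separate cultures. The paper's reporting summary states that RNA sequencing was replicated 2 times, without saying whether from separate cultures. The p-values thus measure the spread between these libraries, which may be technical.

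Neural stem cells keep a radial glia-like program while they divide. Nestin and vimentin form the intermediate filaments of these cells, SOX2, SOX9, PAX6 and NR2E1 (TLX) are transcription factors that maintain them or set their fate, and Musashi proteins bind mRNAs and control their translation. FABP7 (BLBP) carries fatty acids in radial glia, and PROM1 (CD133) is a membrane glycoprotein used to sort stem cells.

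In mock-treated control NSPCs, the transcripts of 9 markers were present over a wide range of levels. Mean FPKM (± SD, n = 2) was 2250 ± 108 for Vim, 771 ± 42.3 for Fabp7, 153 ± 16.4 for Sox2 and 89.8 ± 2.94 for Nes. It was 42.8 ± 6.22 for Sox9, 40.3 ± 4.28 for Msi2, 16.9 ± 3.66 for Msi1, 11.7 ± 1.15 for Pax6 and 10.2 ± 0.0707 for Nr2e1. Vim had a higher control level than 99.97% of the genes tested, and Nr2e1 a higher level than 43.8% of them. In this order, neighbours did not overlap between the libraries of any group, except Sox9 and Msi2 in the control libraries.

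**Figure D1:**
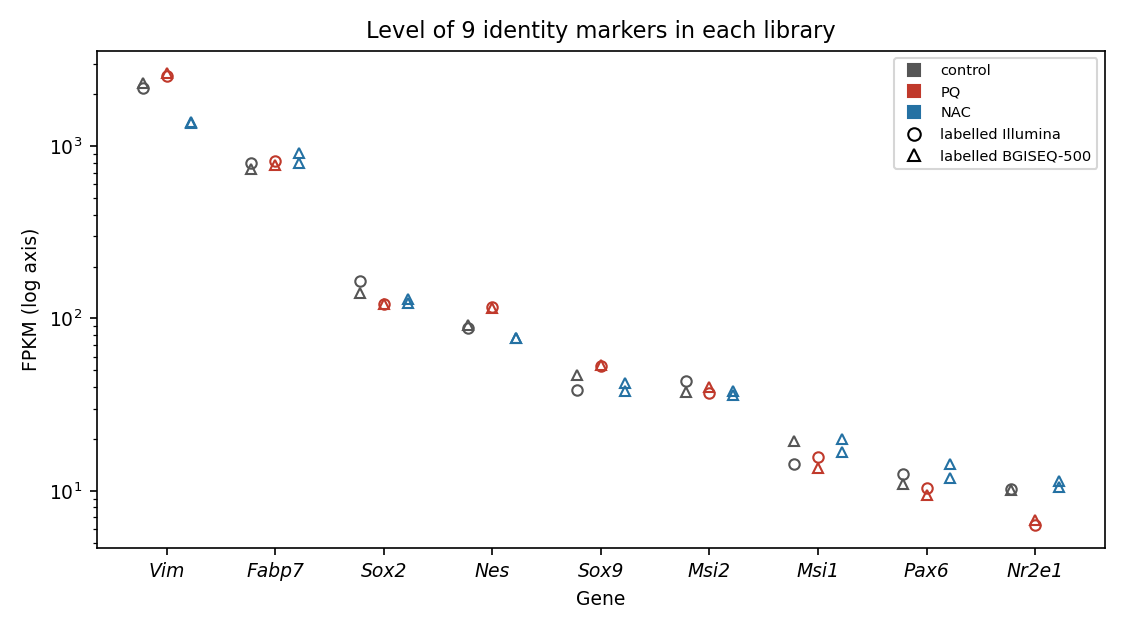
FPKM (log axis) of the 9 markers that passed the filter in each of the 6 libraries, with colours for groups and symbols for the labelled platform. Vim lay highest in every library, between 1362 and 2647, and Nr2e1 was at the low end, between 6.31 and 11.5.

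Prom1 was at the limit of detection, with 2 and 0 expected counts in control, 2 and 4 in PQ and 0 in both NAC libraries. A count of 0 allows up to 3 counts (a CPM of 0.299 in control library 2, 0.280 in NAC library 1 and 0.303 in NAC library 2), and these limits cover counting error only. Prom1 exceeded that limit in PQ library 2 alone, and it was not tested.

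Between treatments, the markers moved in different directions. With p-values of edgeR's quasi-likelihood test adjusted over all 11717 genes, 3 of the 9 tested markers passed an adjusted p of 0.05 for PQ against control, where 2250 genes, or 19.2%, did. Of these 3, Nes was higher (9.76% of all genes were) and Sox2 and Nr2e1 were lower (9.45%). For NAC against control, Nes, Sox2 and Vim passed and were lower. Of all genes, 2186, or 18.7%, passed in that comparison, 9.01% higher and 9.64% lower. Between PQ and NAC, 5 markers differed, Vim, Nes and Sox9 being higher in PQ and Pax6 and Nr2e1 lower. Here 3708 genes, or 31.6%, differed, 16% of all genes being higher and 15.7% lower in PQ. With only 9 markers, 3 or 5 calls are counts too small to set the markers apart from these shares. The shares are those of the fit of all 6 libraries, and fewer genes were called whenever a library was left out. For PQ against control the number fell most without PQ library 1. Counts given below with a library left out therefore have no matching share beside them. The 3 comparisons share libraries, so their values stand side by side and are not independent.

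**Figure D2:**
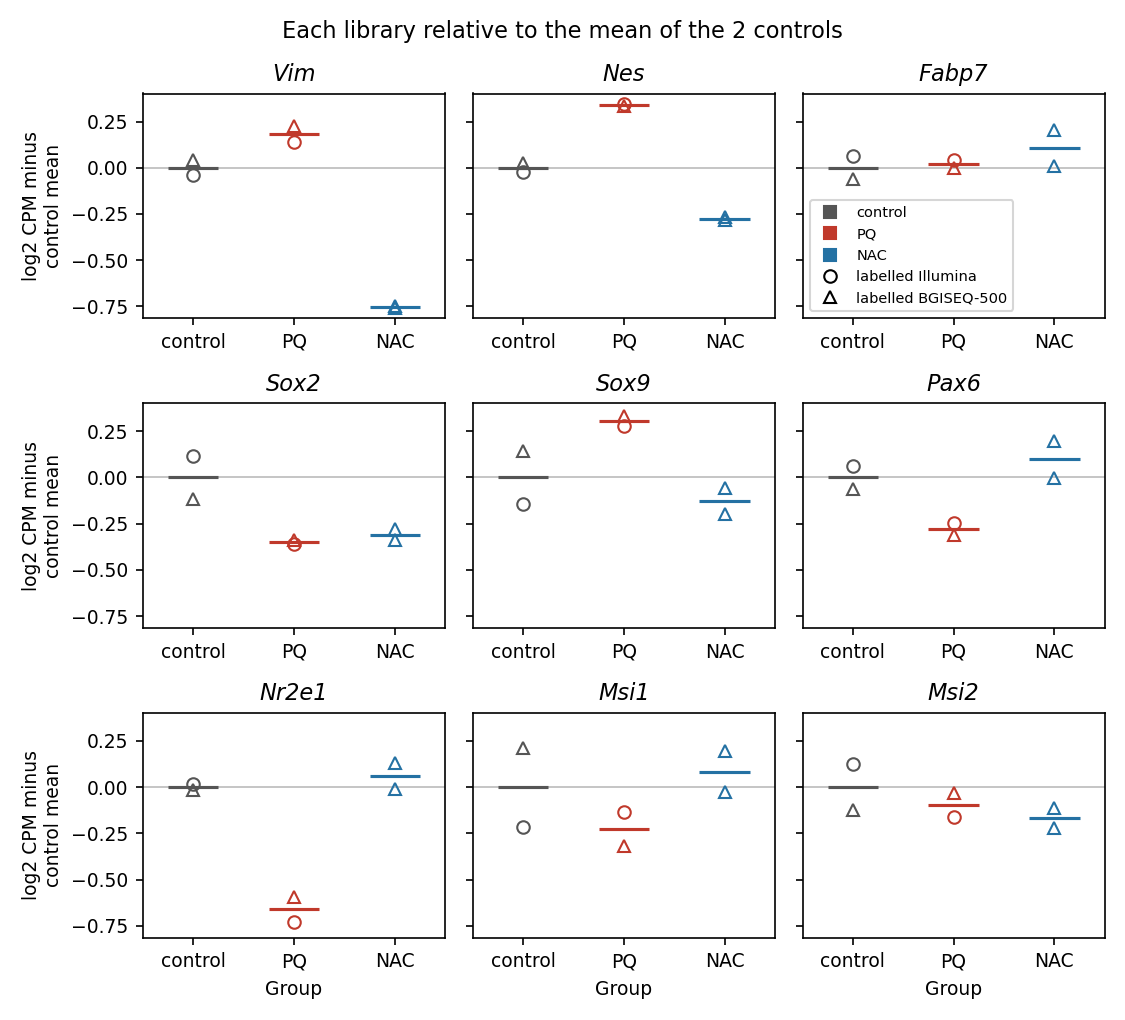
Log2 CPM of each library minus the mean of both controls, per marker, with symbols for the labelled platform and bars for group means. The PQ libraries lay above the controls for Nes, Sox9 and Vim and below them for Sox2, Pax6 and Nr2e1. Of these, Sox9, Vim and Pax6 did not pass for PQ against control. Both NAC libraries lay below the controls for Vim, Nes and Sox2. How often groups separate so among all genes was not counted, so these positions are a description only.

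**Figure D3:**
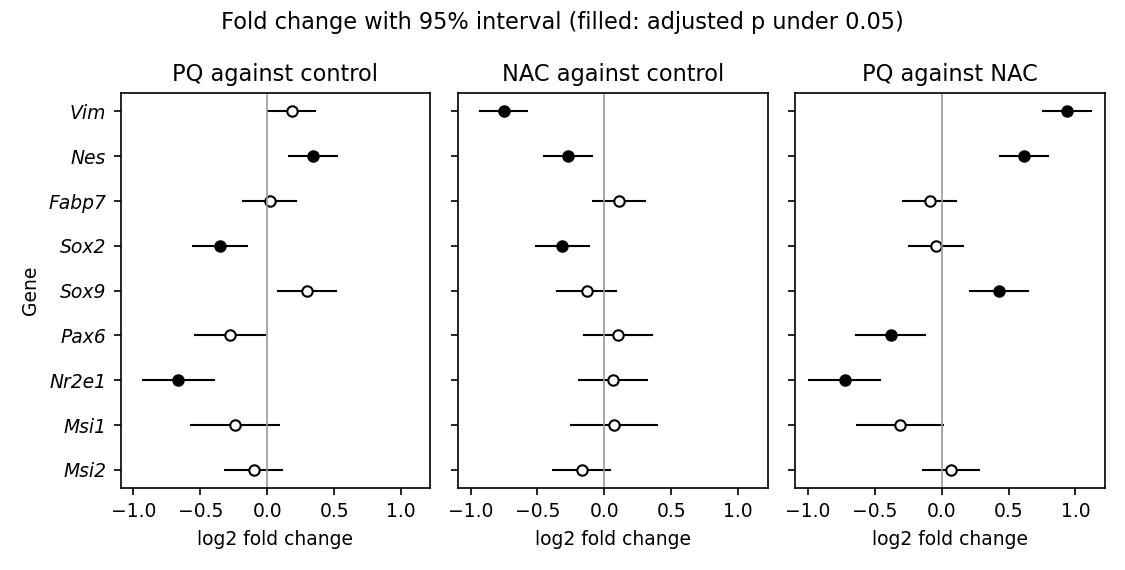
Log2 fold change of each marker with its 95% confidence interval in the 3 comparisons, filled where the adjusted p was under 0.05. Vim spanned the widest range, from -0.75 in NAC against control to 0.94 in PQ against NAC.

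Among the filament genes, Nes (NCBI gene 18008, chr3:87971093-87980451, GRCm38.p6) separated all 3 groups. Its normalised counts, scaled by edgeR's TMM method to a common library size, were 5620 and 5824 in control, 7273 and 7219 in PQ, and 4754 and 4703 in NAC. Both PQ libraries were thus above both controls, and both NAC libraries below them. The log2 fold change was 0.34 (SE 0.0852) for PQ against control (adjusted p = 0.00862, edgeR's quasi-likelihood test). NAC against control gave -0.28 (SE 0.0855, adjusted p = 0.0297, edgeR) and PQ against NAC gave 0.62 (SE 0.0855, adjusted p = 2.22e-05, edgeR), a 1.53-fold difference. Between the libraries labelled Illumina, PQ exceeded control by 0.37 on the log2 scale, and between those labelled BGISEQ-500 by 0.31.

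The calls for Nes differed in how firmly they stood. Its rise with PQ missed the threshold when either PQ library was left out (edgeR adjusted p = 0.0808 without library 1 and 0.0517 without library 2), although over all 11 alternatives the log2 fold change stayed between 0.32 and 0.37 and the adjusted p between 0.00114 and 0.0808. Its fall with NAC missed the threshold in 8 of 11 alternatives, among them each left-out library (adjusted p from 0.0518 to 0.149, edgeR) and labelled platform as a covariate (0.0938). PQ against NAC passed in all 11. Fewer cells expressing a gene and less RNA per cell cannot be told apart in bulk libraries such as these.

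Vim (NCBI gene 22352, chr2:13574311-13582826) had the largest difference between groups. Normalised counts were 40931 and 43340.0 in control, 46469 and 49209 in PQ, and 24874.5 and 25101 in NAC. The NAC libraries lay far below the other 4, and the PQ libraries lay above the controls by little more than the spread between replicates. Vim fell with NAC by 0.75 on the log2 scale (SE 0.084, adjusted p = 3.77e-06, edgeR), to 0.593 of the control level, and this passed in all 11 alternatives. PQ against control was 0.18 (95% interval 0.01 to 0.36, adjusted p = 0.139, edgeR) and did not pass. PQ against NAC was 0.94 (SE 0.0842, adjusted p = 1.58e-07, edgeR) and passed in all 11 alternatives. The ratio of Vim to Nes FPKM was 24.7 and 25.3 in control, 21.7 and 23.2 in PQ, and 17.8 and 18.1 in NAC.

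The transcription factors did not move as a group. Nr2e1 (NCBI gene 21907, chr10:42561963-42583590), which encodes the orphan nuclear receptor TLX, had normalised counts of 344 and 337 in control, 205 and 225 in PQ, and 372 and 338 in NAC. Both PQ libraries were below the other 4, while control and NAC overlapped. Nr2e1 fell with PQ by 0.66 on the log2 scale (SE 0.127, adjusted p = 0.00117, edgeR), to 0.631 of control, and PQ against NAC was -0.73 (SE 0.126, adjusted p = 0.000226, edgeR). Both calls passed in all 11 alternatives. The difference between PQ and control was -0.74 within the libraries labelled Illumina and -0.58 within those labelled BGISEQ-500. NAC against control was 0.06 (95% interval -0.19 to 0.32, adjusted p = 0.779, edgeR).

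Sox2 (NCBI gene 20674, chr3:34649995-34652461), a core factor of stem cell self-renewal, had normalised counts of 4170 and 3541 in control, 2989 and 3041 in PQ, and 3042 and 3164 in NAC. All 4 treated libraries were below both controls, whose own values lay far apart. PQ against control was -0.35 (SE 0.0956, adjusted p = 0.0138, edgeR) and NAC against control -0.31 (SE 0.0955, adjusted p = 0.0271, edgeR), whereas PQ against NAC was -0.04 (adjusted p = 0.782, edgeR). Without control library 1, the higher of the controls, neither call passed (-0.23, adjusted p = 0.15, and -0.19, adjusted p = 0.253, edgeR). The PQ call also missed without PQ library 1 (adjusted p = 0.12) or PQ library 2 (0.071), and the NAC call without NAC library 1 (0.161) or NAC library 2 (0.0864) and with labelled platform as a covariate (0.161), all in edgeR, as well as with limma (0.096 with a pseudocount of 1 and 0.0966 with 0.1). Over the 11 alternatives the adjusted p ranged from 0.00188 to 0.15 for PQ and from 0.00405 to 0.253 for NAC. PQ minus control on the log2 scale was -0.48 within the libraries labelled Illumina and -0.22 within those labelled BGISEQ-500. Sox2 lies inside Sox2ot, a gene with at most 44.3 expected counts in any library, and reads of such overlapping genes could not be assigned with certainty.

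Sox9 (NCBI gene 20682, chr11:112782210-112787757), a factor needed for stem cell induction and gliogenesis, had normalised counts of 1654 and 2011 in control, 2210 and 2297 in PQ, and 1592 and 1755 in NAC. The PQ libraries were above all others, and the NAC range overlapped that of control. PQ against NAC was 0.43 (SE 0.104, adjusted p = 0.00381, edgeR), a call that among the 11 alternatives missed only without NAC library 1 (adjusted p = 0.0609, edgeR), the lowest value among them being 0.000351. PQ against control was 0.30 (SE 0.104) and missed the threshold (adjusted p = 0.0518, edgeR), as it did in 10 of 11 alternatives. It passed without control library 2 (0.45, adjusted p = 0.00529, edgeR), whereas adjusted p was 0.366 without control library 1 (0.16), 0.166 without PQ library 1 and 0.217 without PQ library 2 (edgeR).

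Pax6 (NCBI gene 18508, chr2:105668896-105698410), a regulator of neurogenic progenitors, had normalised counts of 354 and 325 in control, 286 and 273 in PQ, and 389 and 339 in NAC. The PQ libraries were the lowest, and control and NAC overlapped. PQ against NAC was -0.38 (SE 0.124, adjusted p = 0.0248, edgeR), which missed the threshold without NAC library 1 (adjusted p = 0.239), PQ library 1 (0.0853) or PQ library 2 (0.131) in edgeR, and with DESeq2 in place of edgeR (0.0708). Over the alternatives its adjusted p ranged from 0.0143 to 0.239. PQ against control was -0.28 (95% interval -0.54 to -0.02, adjusted p = 0.131, edgeR). Pax6 overlaps Elp4, which had up to 302 expected counts in a library, and whether strand was used to assign reads is not given in the sources used here.

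The remaining markers passed in no comparison. Msi1 (NCBI gene 17690, chr5:115359059-115455698) had normalised counts of 227 and 306 in control, 240.3 and 211 in PQ, and 259 and 303 in NAC, and Msi2 (NCBI gene 76626, chr11:88339382-88718306) ranged from 2316 to 2940.4. Fabp7 (NCBI gene 12140, chr10:57784923-57788450) ranged from 5577 to 6726. For PQ against control, the 95% intervals of the log2 fold change were -0.57 to 0.09 for Msi1, -0.31 to 0.11 for Msi2 and -0.18 to 0.22 for Fabp7. For NAC against control they were -0.25 to 0.39, -0.38 to 0.04 and -0.09 to 0.31. Groups overlapped for all 3 genes except Msi1 in PQ and NAC (log2 fold change -0.31, adjusted p = 0.135, edgeR).

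A test of whether the PQ effect differed between the platform labels called 25 of 11717 genes (0.213%) and 0 of the 9 markers in edgeR. At an unadjusted p under 0.05 there were 1019 genes and 1 marker. That marker was Msi1, with PQ against control at 0.08 in the libraries labelled Illumina and -0.53 in those labelled BGISEQ-500 (adjusted p = 0.528, edgeR). This test rested on the spread of the 2 NAC libraries alone. No NAC library was labelled Illumina, so no such comparison was possible for NAC. Within the libraries labelled BGISEQ-500, NAC minus control was -0.79 for Vim, -0.30 for Nes and -0.19 for Sox2 on the log2 scale.

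Promoters of the 4 markers called against control for either treatment are shown, since the 4 genes moved in different directions. RefSeq (GRCm38.p6) promoters were found for 8 of the 10 markers, all but Sox9 and Msi1. The 250 bases before each start were searched on both strands for the TATA box (letters TATAAA), the box named by its letters CCAAT, the GC box (letters GGGCGG), the cAMP response element (letters TGACGTCA) and the FOXO element (letters TGTTTAC). These motifs, in that order, were found in 12.4%, 33.8%, 32.7%, 1.55% and 3.17% of the 32851 promoters in the table. The last 140 bases before the start are printed 5′ to 3′ on the gene strand, with matches on either strand in capitals.
Vim, chr2:13574171-13574310, plus strand: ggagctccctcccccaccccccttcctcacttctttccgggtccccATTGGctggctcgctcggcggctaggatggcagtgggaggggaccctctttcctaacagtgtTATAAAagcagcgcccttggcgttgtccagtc
Nes, chr3:87970953-87971092, plus strand: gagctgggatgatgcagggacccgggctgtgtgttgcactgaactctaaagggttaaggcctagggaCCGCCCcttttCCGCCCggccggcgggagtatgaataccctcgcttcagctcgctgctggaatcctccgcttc
Sox2, chr3:34649855-34649994, plus strand: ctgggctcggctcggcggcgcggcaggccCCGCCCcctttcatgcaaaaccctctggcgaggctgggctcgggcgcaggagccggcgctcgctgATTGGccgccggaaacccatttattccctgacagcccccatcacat
Nr2e1, chr10:42583591-42583730, minus strand: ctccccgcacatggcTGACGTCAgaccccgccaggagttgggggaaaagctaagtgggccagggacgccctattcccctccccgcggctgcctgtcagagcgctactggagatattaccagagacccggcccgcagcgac
The Vim sequence held a TATA box that began 32 bases before the start and a CCAAT box on the opposite strand, and that of Nes held a pair of GC boxes on the opposite strand. A GC box and a CCAAT box, both on the opposite strand, were in the Sox2 sequence, and Nr2e1 had a cAMP response element 125 bases before the start. The same element was in the windows of Pax6 and Msi2, which were not called against control. The FOXO letters were in none of the 8 markers' windows. A match is a description of the letters and not of a bound site, and the absence of a match says nothing of the factor.

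The other genes of the neural stem and progenitor program were examined as a list of 43, of which 36 were tested. With PQ, 6 were higher and 10 lower (of all genes, 9.76% and 9.45%). The median log2 fold change was -0.12, against -0.0013 over all genes tested. These shares are those of the full fit, and fewer genes were called over all tested when either PQ library was left out. The count of 10 lower also fell without PQ library 1 and without PQ library 2 (edgeR), and the size of these falls was not compared. The largest changes listed were Fgfr3, a growth factor receptor (-1.01, SE 0.118, adjusted p = 1.07e-05, edgeR), Eomes (1.01), the chromatin protein gene Hmga2 (0.78, SE 0.0887, adjusted p = 9.04e-06, edgeR) and Lfng, a modifier of Notch receptors (-0.70, SE 0.102, adjusted p = 0.000115, edgeR). Fgfr3 FPKM was 12.8 and 15.5 in control, 7.47 and 6.81 in PQ, and 13.7 and 14.7 in NAC. The PQ libraries were thus below all others. For Eomes, only the PQ group averaged 1 FPKM or more, so it passed the filter through the group where it was high. Eomes is among the 6 counted higher with PQ, and it is also counted higher in PQ than in NAC. Its values are a description only. Eomes lay near the filter, at 0.82 to 2.08 FPKM in control and PQ, and its call (adjusted p = 0.0403, edgeR) was lost without control library 1 (0.0662), control library 2 (0.0799) or PQ library 1 (0.366), with DESeq2 (0.11) and with limma (0.15 with a pseudocount of 1 and 0.19 with 0.1).

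With NAC, 9 of the 36 were higher and 7 lower (of all genes, 9.01% and 9.64%), with a median of 0.03, against -0.0018 over all genes. Both counts were smaller without NAC library 2 (edgeR), where fewer genes were called over all tested too. The largest changes were Insm1, a factor of newly born neurons (-2.20, SE 0.33, adjusted p = 8.97e-05, edgeR), the Notch ligand gene Dll1 (2.02, SE 0.219, adjusted p = 2.75e-06, edgeR), the glial filament gene Gfap (1.23, SE 0.209, adjusted p = 0.000315, edgeR) and Cd24a (-0.95, SE 0.0918, adjusted p = 7.42e-07, edgeR). Dll1 FPKM was 0.94 and 1.15 in control, 1.5 and 1.04 in PQ, and 4.73 and 4.02 in NAC, so that only the NAC libraries stood apart. Insm1 lay near the filter, at 0.44 to 2.88 FPKM, and its log2 fold change ranged from -2.54 to -1.10 over the alternatives, all of which passed. Between PQ and NAC, 9 were higher and 16 lower in PQ (of all genes, 16% and 15.7%), with a median of -0.25, against 0.0004 over all genes.

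**Figure D4:**
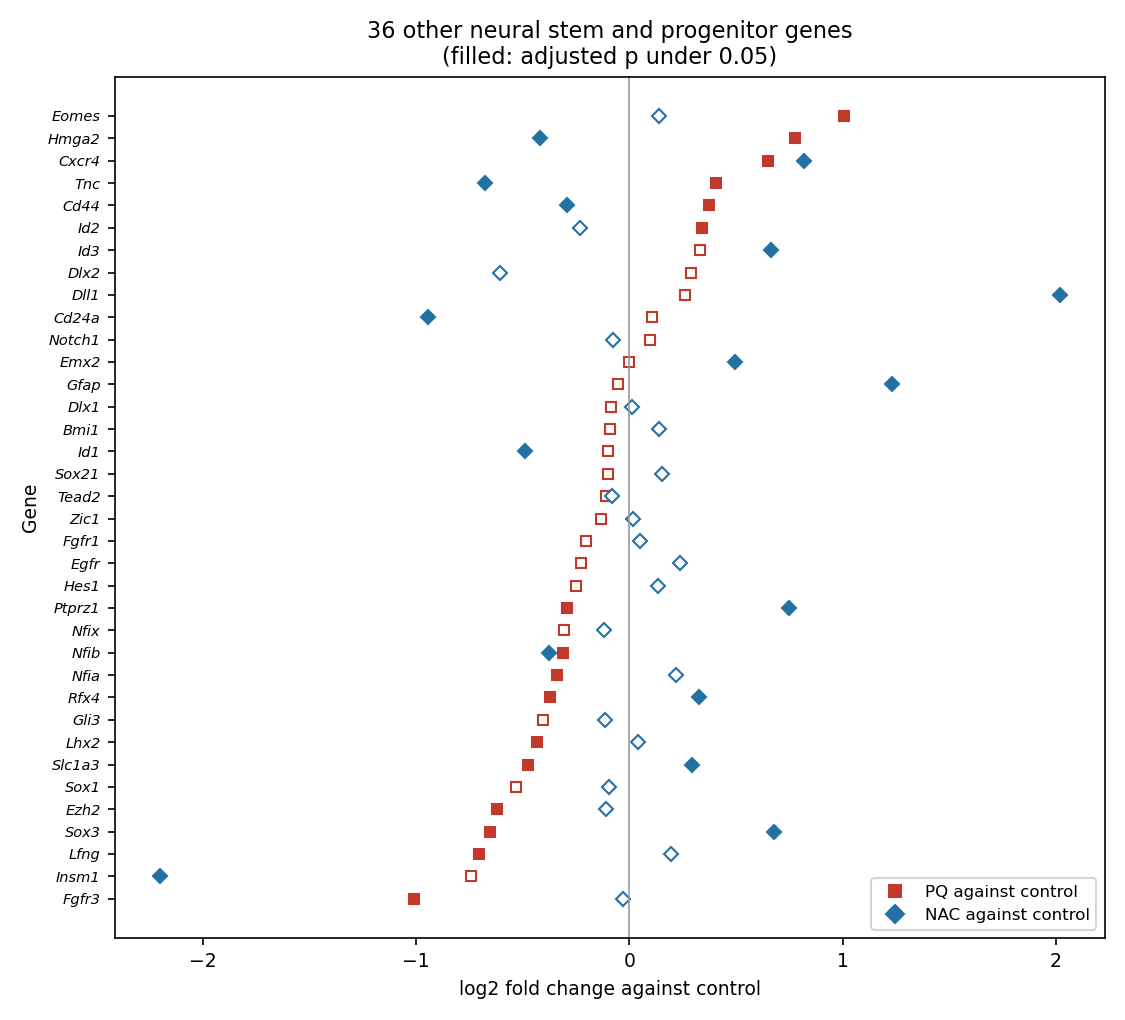
Log2 fold change of the 36 other neural stem and progenitor genes against control, for PQ (squares) and NAC (diamonds), filled where the adjusted p was under 0.05 and ordered by the PQ value. Values ran from -1.01 to 1.01 for PQ and from -2.20 to 2.02 for NAC.

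Family members and partners of the markers formed a list of 30 genes, of which 20 were tested. With PQ, 2 were higher and 3 lower, so that 5 of 20 passed where 19.2% of all genes did. With NAC 6 were higher and 4 lower, against 9.01% and 9.64% of all genes (medians -0.16 for PQ and -0.01 for NAC). The NAC counts fell without NAC library 2 and the PQ counts without PQ library 2 (edgeR), as did the numbers called over all genes. Between PQ and NAC, 4 were higher and 7 lower in PQ (median -0.27), against 16% and 15.7% of all genes. Both counts were smaller without PQ library 1 (edgeR), where fewer of all genes were called too. Other filament genes were among them. Nefl FPKM was 38.8 and 42.6 in control, 59.9 and 61.8 in PQ, and 16.5 and 26.2 in NAC, so that the groups did not overlap. Nefl rose with PQ (0.55, SE 0.137, adjusted p = 0.00798, edgeR) and fell with NAC (-0.98, SE 0.145, adjusted p = 7.79e-05, edgeR), and Nefm gave 0.51 (adjusted p = 0.00858, edgeR) and -0.99 (adjusted p = 3.62e-05, edgeR). Without PQ library 2 neither PQ call passed (adjusted p = 0.052 for Nefl and 0.0576 for Nefm, edgeR), nor with limma (0.0575 and 0.0527 with a pseudocount of 1). Sox3, of the same subfamily as Sox2, was lower with PQ (-0.65, adjusted p = 0.00921, edgeR), a call lost without control library 2 (0.0612) or PQ library 2 (0.129), and higher with NAC (0.68, adjusted p = 0.00354, edgeR). Sox8, of the same subfamily as Sox9, was higher with NAC (0.97, SE 0.107, adjusted p = 3.09e-06, edgeR).

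Markers of dividing cells were lower with PQ. All 10 proliferation genes tested were lower with PQ (median -0.64, 9.45% of all genes being lower) and 0 passed with NAC in edgeR, DESeq2 or limma (median 0.11, 3 at an unadjusted p under 0.05 in edgeR, where 18.7% of all genes passed), while all 10 were lower in PQ than in NAC (median -0.75, 15.7% of all genes). Not all of the 10 remained under an adjusted p of 0.05 against control without PQ library 1 (edgeR), where fewer of all genes were called too. Mki67 FPKM was 100.8 and 104 in control, 44.6 and 50.5 in PQ, and 135 and 119 in NAC, and its log2 fold change with PQ was -1.13 (SE 0.0978, adjusted p = 5.67e-07, edgeR). Aurkb gave -0.96 (SE 0.101), Mcm2 -0.86 (SE 0.0969) and Ccna2 -0.82 (SE 0.0967). Summed FPKM of the list was 887 and 903 in control, 540.4 and 583 in PQ, and 1040 and 975 in NAC, with Pcna the most abundant. The part of proliferation in the lower Nr2e1 and Sox2 levels was not tested.

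Most astrocyte genes tested were higher with NAC. Of 9 tested, 6 were higher and 1 lower with NAC (median 1.09, of all genes 9.01% and 9.64%), and 2 were higher and 1 lower with PQ (median 0.23, of all genes 9.76% and 9.45%). Neither gene counted higher with PQ was called without PQ library 1 (edgeR), where fewer genes were called over all tested too. In PQ against NAC, 2 were higher and 6 lower (median -0.77, of all genes 16% and 15.7%). With NAC, Aqp4 gave 1.76 (SE 0.221, adjusted p = 1.36e-05, edgeR), Agt 1.66 (SE 0.259, adjusted p = 0.000129, edgeR) and Aldoc 1.09 (SE 0.0993, adjusted p = 3.57e-07, edgeR), besides Gfap. Mean FPKM of Aqp4 was 0.745 in control, 0.685 in PQ and 2.61 in NAC. Aqp4 thus passed the filter only through the NAC libraries, where it was high. It is among the 6 counted higher with NAC, and its values are a description only. Gja1, the most abundant gene of the list, was lower with NAC (-0.43, SE 0.0899, adjusted p = 0.00217, edgeR) in all 11 alternatives, and Aldh1l1 did not pass with NAC (-0.49, adjusted p = 0.306, edgeR). With PQ, Aldh1l1 was higher (1.17, adjusted p = 0.0035, edgeR, and 0.0912 without PQ library 1), as was Gja1 (0.31, adjusted p = 0.0197, edgeR, but 0.0759 without control library 2, 0.0551 without PQ library 1 and 0.189 without PQ library 2), and Slc1a3 was lower (-0.48, SE 0.0945, adjusted p = 0.00158, edgeR) in all 11 alternatives. Summed FPKM was 286 and 273 in control, 282 and 298 in PQ, and 341 and 339 in NAC, and Gjb6 had at most 3 counts in any library. Their part in the lower Vim and Nes levels with NAC was not tested.

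Of 9 oligodendrocyte lineage genes in the files, Olig1 and Olig2 were abundant, and 4 (Sox10, Cspg4, Mbp and Gpr17) had a mean FPKM under 1. Olig1 FPKM was 320.4 and 414 in control, 445 and 388 in PQ, and 454 and 554 in NAC, and Olig2 ranged from 267 to 355, whereas Sox10 had at most 1 count. Of 5 tested, 1 was lower with PQ, where 19.2% of all genes passed, namely Nkx2-2 (-0.51, adjusted p = 0.0071, edgeR), a call lost without control library 1 (0.0535) or PQ library 1 (0.0854). With NAC, where 18.7% passed, 2 were higher, Olig1 (0.41, SE 0.115, adjusted p = 0.017, edgeR) and Pdgfra (0.40, SE 0.105, adjusted p = 0.0109, edgeR), and in PQ against NAC, where 31.6% passed and 15.7% were lower, 3 were lower (Nkx2-2, Pdgfra and Olig2, medians of the 3 comparisons -0.09, 0.07 and -0.26). The Olig2 call (-0.26, adjusted p = 0.0334, edgeR) was lost without PQ library 2 (-0.17, 0.325), NAC library 1 (0.117) or NAC library 2 (0.133) and with labelled platform as a covariate (0.0535). Both NAC calls were lost with labelled platform as a covariate (adjusted p = 0.0664 and 0.0514, edgeR). Without control library 1 or NAC library 2 the calls for Olig1 (0.18 and 0.235) and Pdgfra (0.0671 and 0.161) were lost too in edgeR, and that for Olig1 also with limma (0.0586 with a pseudocount of 1 and 0.0553 with 0.1). Summed FPKM was 729 and 835 in control, 847 and 747 in PQ, and 896 and 1011 in NAC.

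Most neuronal genes were scarce, with 3 of 12 tested and Dcx at no more than 7.69 expected counts. Map2 and Nefl were not, with a mean FPKM of 43.2 and 41.0 over the libraries. Tubb3 was below the filter, at 2.38 and 1.3 FPKM in control, 0.72 and 0.47 in PQ, and 0.32 and 0.44 in NAC, so that all treated libraries lay below both controls. With no filter on low values, its log2 fold change in edgeR was -1.65 (SE 0.441) with PQ and -2.28 (SE 0.475) with NAC. No other setting held Tubb3, and it exceeded 1 FPKM only in control, where it was high. Its values are therefore a description only. Among the 3 tested genes, Syn1 and Nefl were higher with PQ, where 19.2% of all genes passed. The Nefl call with PQ was lost in the settings given above. With NAC, where 18.7% of all genes passed, Map2 was higher (0.77, adjusted p = 1.14e-05, edgeR) and Nefl lower. In PQ against NAC, where 31.6% of all genes passed, Nefl and Syn1 were higher and Map2 lower. With 3 genes, these counts are too small to set the list apart from those shares. The Syn1 call with PQ (0.59, adjusted p = 0.0103, edgeR) was lost without control library 1 (0.116), PQ library 1 (0.0703) or PQ library 2 (0.054). Summed FPKM was 82.9 and 86.5 in control, 104 and 107 in PQ, and 87.5 and 90.4 in NAC, with Map2 the most abundant, and Neurod1 and Stmn2 had at most 3 counts in any library.

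Other cell types left few transcripts. Of 9 microglia or macrophage genes, 5 (Aif1, Csf1r, Tmem119, C1qa and Ptprc) had at most 3 counts in any library, 2 were tested, and P2ry12 was higher with NAC (1.18, adjusted p = 0.00329, edgeR, and 0.0896 without NAC library 1). None of 7 endothelium or pericyte genes in the files was tested, and their summed FPKM was at most 0.88 in any library. Of 5 ependyma genes 3 were tested and 0 passed for PQ or NAC against control in edgeR, DESeq2 or limma (0 at an unadjusted p under 0.05 in edgeR), where 19.2% and 18.7% of all genes did in edgeR, and Foxj1 was higher in PQ than in NAC (0.46, adjusted p = 0.0412, edgeR, but 0.354 without PQ library 1, 0.136 without NAC library 1, 0.142 without NAC library 2 and 0.219 with labelled platform as a covariate, and in other tools 0.14 with DESeq2 and 0.0685 and 0.0642 with limma). Of 5 fibroblast genes only Col3a1 was tested, and it was lower with PQ than in control (-0.90, adjusted p = 0.000218, edgeR) and than in NAC (-0.53, adjusted p = 0.00793, edgeR). The latter call was lost without PQ library 1 (0.0565) or NAC library 1 (0.115).

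Counts at the locus of the labelled knockout are given as a description. Cdkn2a had 137 and 162 expected counts in control, 120 and 130 in PQ, and 130 and 131 in NAC, and Cdkn2b had between 120 and 179. Gene-level counts do not tell transcripts with a deleted part from whole ones, so these values check nothing about the label, and neither gene passed in any comparison.

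For each marker with a call, the 3 genes with the most similar profile over the 6 libraries were listed by Pearson's r of log2 CPM, as a description with no test. They were Kirrel3, Ifi27 and Dapk1 for Nes (r = 0.996 to 0.999) and Cd82, Cltb and Cdc42ep3 for Vim (0.997 to 0.999). For Nr2e1 they were Fancd2, Hjurp and Umps, each at 0.999 or above. Sox2 was nearest to Ubr2, Ddr2 and Socs7 (0.990 to 0.992), Sox9 to Casp9, Tnfrsf23 and Nova2 (0.991 to 0.994), and Pax6 to Ddx21, Clcc1 and Tmem98 (0.988 to 0.991).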

How the data were processed

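RNA-seq gene tables of 6 libraries were used, 1 per library, and groups were taken from the labels. Per the labels, libraries named BGISEQ-500 were aligned to mm10 with HISAT2 2.0.4 and Bowtie2 2.2.5 and quantified with RSEM, and control library 1 and PQ library 1 to mm9 with TopHat2 2.0.11 and Cufflinks 2.1.1. The methods name mm9, TopHat and Cufflinks for all. All 6 tables have columns of the RSEM type. Each table as deposited gives, per gene, a transcript length, an expected count that is not normalised, and an FPKM value scaled by length and library total. Genes not listed in a table were taken as 0. The methods name a stranded library kit, and whether strand entered the counting is not given in the sources used here.

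Expected counts were rounded and tested with edgeR 4.0.16 (TMM, quasi-likelihood, two-sided, all 6 libraries, no covariates) in R 4.3.3 where FPKM averaged 1 or more. P-values were adjusted by Benjamini-Hochberg, and unrounded values under 0.05 were called. Standard errors were derived from the fold change and the F statistic. Levels between genes were compared in FPKM. Alternatives were DESeq2 size factors, no filter, DESeq2 1.42.0, limma 3.58.1 on log2(FPKM + 1) and log2(FPKM + 0.1), a fit restricted to the 4 libraries compared, labelled platform as a covariate, and each library left out. Scripts were tested on simulated data. Symbols, gene positions and promoters were those of RefSeq GRCm38.p6, the mm10 assembly.

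The genes named are the 10 markers, Cdkn2a and Cdkn2b, and up to 4 genes per list with the largest change among those past the threshold. Others were named after their values were seen. The members and lists were chosen with earlier results of these data known. Id4 and Otx2, of the progenitor list, were not analysed here, and 2 genes of the lists are not reported here and not counted in them.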

Additional observations from a re-analysis of the deposited data

How the results depend on the processing

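Of the 9 markers tested, Nr2e1 with PQ, Vim with NAC, and Nes, Vim and Nr2e1 in PQ against NAC passed in all 11 alternatives. Over the 99 combinations of marker and alternative in each comparison, direction and side of the threshold were as reported in 90 for PQ against control, 80 for NAC against control and 93 for PQ against NAC. With NAC, 1 marker passed in place of 3 with limma on log2(FPKM + 1), with limma on log2(FPKM + 0.1) and with labelled platform as a covariate, and the cause was not tested. Leaving out a library, which leaves 1 library in a group that is assumed to vary like the others, gave 866 to 2206 genes for PQ against control, 1286 to 2126 for NAC against control and 2343 to 2769 for PQ against NAC, with 1 to 4, 1 to 2 and 3 to 5 markers. The other alternatives gave 1673 to 2247, 1689 to 2234 and 2903 to 4210.0 genes. The sign changed in 9 values, all of them small, not called and with a library left out. These ranged with PQ from -0.22 to 0.030 for Msi2 and from -0.044 to 0.084 for Fabp7, with NAC from -0.27 to 0.017 for Sox9, from -0.0027 to 0.20 for Pax6, from -0.13 to 0.30 for Msi1 and from -0.011 to 0.13 for Nr2e1, and in PQ against NAC from -0.19 to 0.013 for Fabp7. Proliferation genes lower with PQ (10 of 10, 8 to 10 with a library left out) and astrocyte genes higher with NAC (6 of 9, 5 to 7) were rechecked so after the data were seen. The labels carry no replicate numbers, so no fit by replicate number was made. The platform label groups control library 1 with PQ library 1 and control library 2 with PQ library 2, and with it as a covariate all 3 PQ calls passed.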

Other observations

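Each group had 2 libraries, and several calls did not pass when 1 library was left out. For some of these the log2 fold change hardly moved. That of Nes stayed between 0.32 and 0.37 with PQ and between -0.30 and -0.25 with NAC. For others it moved, as for Sox2 with PQ, at -0.23 without control library 1 against -0.35 with all libraries. Both NAC libraries were labelled BGISEQ-500, so the NAC effect within that platform rests on control library 2. The sources differ on sequencer, aligner and build, and the tables have the same columns throughout. Transcript levels are not protein levels, and the markers are shared by several cell types of the mixed culture. The lists were chosen with earlier results of these data known, and they were not tested as sets. They overlap in part (Gfap, Sox1, Sox3, Sox10, Sox21, Nefl and Slc1a3 stand in more than 1).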
